A study of Mus musculus with 12 samples.

Results

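The genes described here are the inhibitors of cyclin-dependent kinases and the pocket proteins, 10 genes chosen by name out of the 37931 gene names that both deposited count tables hold. They comprise the Cip/Kip inhibitors Cdkn1a, Cdkn1b and Cdkn1c, the INK4 inhibitors Cdkn2a, Cdkn2b, Cdkn2c and Cdkn2d, and the pocket proteins Rb1, Rbl1 and Rbl2. RNA of these genes was counted in stem cells of the hair follicle, sorted from the back skin of mice with and without the transcription factor Foxc1, in anagen (the growth phase of the follicle) and early telogen (its resting phase). All mice carried K14-H2BGFP, a green fluorescent histone driven by the keratin 14 promoter, and Foxc1 fl/fl alleles. Knockout (KO) mice also carried K14Cre, which acts in every keratin 14 lineage and not in the stem cells alone, and wild-type (WT) controls did not carry Cre. Cells were sorted as positive for H2BGFP, CD34 and CD49f and negative for Sca-1. The anagen groups held 2 KO libraries, titled for postnatal days 29 and 31, and 3 WT libraries, titled for days 29, 30 and 31. In early telogen there were 4 KO libraries, numbered 1, 2, 3 and 5, and 3 WT libraries, numbered 1, 3 and 4, all labelled with an age of 47 days. The labels do not say that libraries came from separate animals, so p-values measure only the spread between libraries.

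Cell cycle entry in mammalian cells is driven by cyclin D with CDK4 or CDK6 and by cyclin E with CDK2, which phosphorylate the pocket proteins and free E2F transcription factors. INK4 proteins bind CDK4 and CDK6, whereas Cip/Kip proteins bind cyclin-CDK complexes of several kinds. RB, encoded by Rb1, binds the activating E2F factors, while p107 (Rbl1) and p130 (Rbl2) join E2F4 or E2F5 and the MuvB core in the DREAM complex, which represses cell cycle genes in quiescent cells. Stem cells of the hair follicle bulge divide briefly during anagen and rest through telogen.

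Promoter sequences were taken from RefSeq (GRCm38.p6) for 8 of the 10 genes, in 11 windows of 300 bases that run from 250 bases before a transcription start to 50 bases after it. Rb1 and Cdkn1c had no entry. Windows are shown for 3 genes whose RNA differed between stages in a test reported here, 5′ to 3′ on the strand of the gene, and capitals mark the motif matches described after them. The Cdkn1a window, chr17:29093519-29093818 on the plus strand, belongs to the more downstream of the RefSeq starts of this gene. The Rbl1 window is chr2:157204485-157204784 and the Cdkn2b window chr4:89310983-89311282, both on the minus strand.
Cdkn1a: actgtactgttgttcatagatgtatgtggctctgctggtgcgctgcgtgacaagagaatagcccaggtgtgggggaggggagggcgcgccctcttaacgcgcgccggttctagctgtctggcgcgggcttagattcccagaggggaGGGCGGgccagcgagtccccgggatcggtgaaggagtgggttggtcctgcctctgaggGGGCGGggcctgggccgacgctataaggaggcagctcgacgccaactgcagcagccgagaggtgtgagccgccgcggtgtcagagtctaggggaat
Rbl1: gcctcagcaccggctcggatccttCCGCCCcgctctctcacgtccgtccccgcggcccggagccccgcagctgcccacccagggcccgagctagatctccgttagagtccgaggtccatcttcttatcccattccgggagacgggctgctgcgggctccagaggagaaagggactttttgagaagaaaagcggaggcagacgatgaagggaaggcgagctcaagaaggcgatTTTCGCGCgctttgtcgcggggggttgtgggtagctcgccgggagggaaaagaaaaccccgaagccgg
Cdkn2b: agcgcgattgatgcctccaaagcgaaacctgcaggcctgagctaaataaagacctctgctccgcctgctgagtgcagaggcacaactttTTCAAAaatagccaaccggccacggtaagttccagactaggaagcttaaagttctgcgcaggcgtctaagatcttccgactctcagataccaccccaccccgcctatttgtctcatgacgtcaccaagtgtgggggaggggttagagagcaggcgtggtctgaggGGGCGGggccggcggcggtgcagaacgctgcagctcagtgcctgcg

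Each motif was searched on both strands, without regard to overlap with another motif. The E2F motif, taken as TTTCGCGC, TTTGGCGC, TTTCCCGC or TTTGCCGC, is held by 2.265% of the 32851 promoter windows in the table. Among the genes described here 2 of the 11 windows held it. They were that of Rbl1, where it begins 18 bases before the start, and the more upstream window of Cdkn2a. The GC box GGGCGG, held by 35.66% of all windows, was found in 9 of the 11 windows, at least 1 for each of the 8 genes with an entry. The CHR motif, TTTGAA or TTCGAA, is held by 19.23% of windows and was found in 2 of the 11, those of Cdkn2b and Rbl2. The forkhead motif GTAAACA, held by 3.65% of windows, was in none of the 11 windows, which says only that these letters are not there.

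Library totals over genes ran from 29025553 to 54482469 counts in anagen and from 2662083 to 11821916 in early telogen, so stage, deposited table and depth cannot be told apart. Foxc1, the targeted gene, was at 0.206 to 0.276 CPM (counts scaled to a common library total) in anagen KO against 34.6 to 115.9 CPM in WT, and at 0.910 to 3.11 CPM in early telogen KO against 43.8 to 61.2 CPM in WT. Its log2 fold change was -4.99 in early telogen (adjusted p = 8.63e-06 in edgeR) and -8.19 in anagen, where no gene passed (adjusted p = 0.0522). In anagen Foxc1 passed under 5 of 12 alternatives. Among them were DESeq2 (adjusted p = 1.88e-34) and the edgeR fits of all 12 libraries (0.000248) and with the title day as a block (0.000169). All 11 stem cell markers on the list, which includes Foxc1, were detected in every group, with summed levels of 21842 to 36129 CPM. Krt5, Krt14 and Krt15 made up most of that sum. Cd34, a marker used for sorting, was lower in early telogen KO than in WT (log2 fold change -1.20, adjusted p = 0.0212 in edgeR). No other of these stem cell markers but Foxc1 passed there. Of the listed markers of other cell types, Dct (melanocyte) was higher in early telogen KO (2.34, adjusted p = 0.0274 in edgeR). Sbsn (differentiated epidermis) was lower there (-1.01, adjusted p = 0.0304 in edgeR). In anagen, where none passed, the lowest estimates besides Foxc1 were Krt15 (-2.12), Nfatc1 (-1.37) and Cd34 (-1.22). Some libraries stood apart. Anagen WT replicate 3 is titled for day 31 but its age label is 43 days, and early telogen KO replicate 5, the shallowest, is titled for day 43 but its age label is 47 days. Early telogen KO replicate 2 had the highest summed level of 6 fibroblast markers, 4975 CPM against 253 to 1505 CPM in the other early telogen libraries. Of these libraries it also had the highest sums for differentiated epidermis (5632 against 1522 to 3686 CPM) and immune markers (231.9 against 13.8 to 101.5 CPM). The same held for the infundibulum (177 against 54.7 to 90.2 CPM) and the stem cell markers (36129 against 24838 to 35896 CPM). Early telogen WT replicate 3 had the lowest sum of 5 endothelial markers, 3.52 CPM against 14.8 to 26.9 CPM. Summed markers of differentiated epidermis (6 of 6 detected) were lower in both anagen KO libraries, 585 and 1038 CPM, than in anagen WT, 1460 to 2168 CPM. In that list Ivl alone had an estimate above 0 for KO against WT in anagen (log2 fold change 1.11, adjusted p = 0.621 in edgeR). Summed markers of the infundibulum, Lrig1 and Ly6a (2 of 3 in both tables), were higher in anagen KO, 371 and 426 CPM against 112 to 254 CPM. Most of that sum was Lrig1, at 52.6 to 420.7 CPM over the 12 libraries, against 2.13 to 55.97 CPM for Ly6a. For KO against WT in anagen Lrig1 had a log2 fold change of 0.92 and Ly6a of 0.0013. Melanocyte markers (5 of 6 in the table) summed to 15.4 to 33.6 CPM in early telogen KO and 2.28 to 5.10 CPM in WT, where Mlana was at 0. Sums of immune markers (6 of 6 detected) ran from 13.8 to 231.9 CPM over the 12 libraries and overlapped between the genotypes at both stages. By label, both KO libraries of the anagen stage came from females, and 2 of the 3 WT libraries of that stage came from males. The part of these differences in the results that follow was not tested, other than by leaving libraries out and by the labelled sex as a covariate. In bulk samples, fewer cells of a type and less RNA per cell cannot be told apart.

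Cdkn1a, whose product p21 is induced by p53, was the most abundant of the inhibitors in every group. On the scale of CPM per kilobase of exon, which allows genes to be compared, it made up 80.4% ± 0.0907 (SD, n = 2) of the Cip/Kip sum in anagen KO, 88.1% ± 1.29 (n = 3) in anagen WT, 89.1% ± 3.12 (n = 4) in early telogen KO and 94.5% ± 1.81 (n = 3) in early telogen WT. Cdkn1b, encoding p27, made up 18.5% ± 0.688, 10.6% ± 0.542, 9.68% ± 2.74 and 4.50% ± 1.73 in the same order. Cdkn1c, encoding p57, made up between 0.98% and 1.26% in the group means. The Cip/Kip sum itself was 185 ± 11.7, 214 ± 5.82, 232 ± 44.1 and 327 ± 53.7 CPM per kilobase. In both genotypes, and at both stages, the group with the higher sum had the larger Cdkn1a share, and no test was made of these shares.

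**Figure D1:**
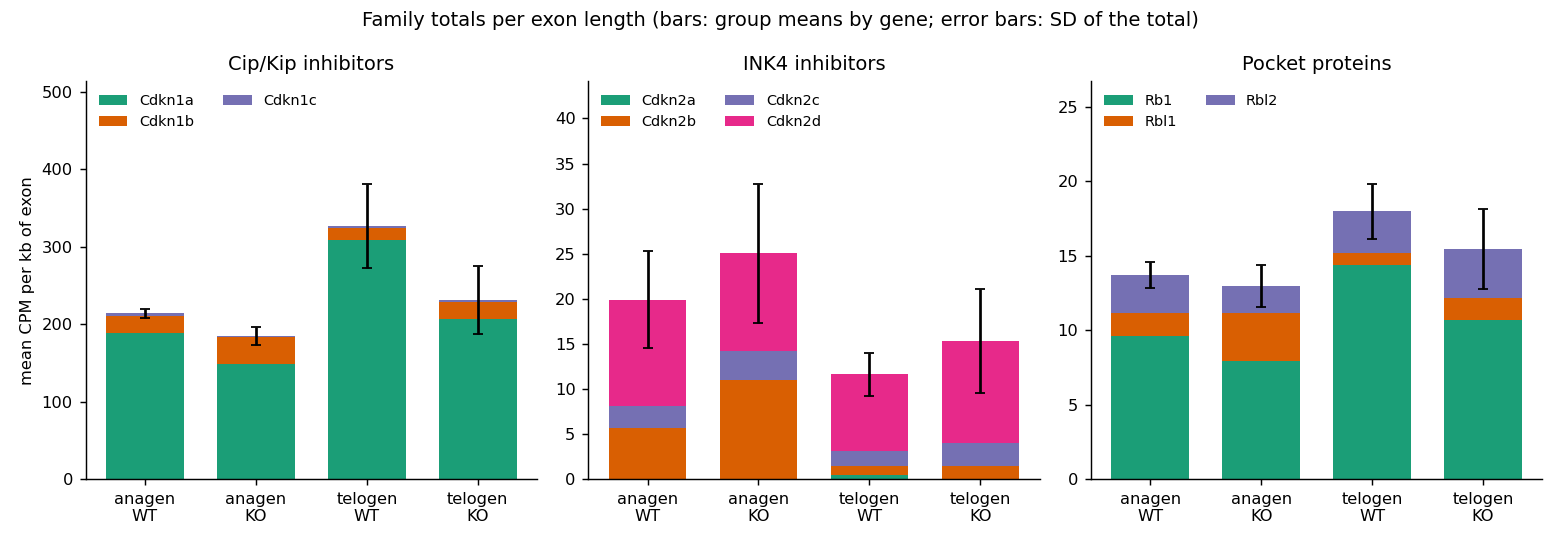
Mean CPM per kilobase of exon (y axis, from 0) of the Cip/Kip inhibitors, INK4 inhibitors and pocket proteins in the 4 groups (x axis), stacked by gene, with error bars for the SD of the family total. Cdkn1a fills most of each Cip/Kip bar, Cdkn2b and Cdkn2d fill nearly equal parts of the INK4 bar of anagen KO while Cdkn2d fills most of the others, and Rb1 is the largest part of each pocket protein bar.

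Among the INK4 genes, Cdkn2d (p19Ink4d) held 43.0% ± 0.547 of the family sum in anagen KO, 61.0% ± 20.5 in anagen WT, 72.7% ± 4.31 in early telogen KO and 73.0% ± 5.29 in early telogen WT. Cdkn2b (p15Ink4b) held 42.6% ± 8.24 and 25.5% ± 24.9 in anagen KO and WT, and 10.02% ± 5.39 and 8.25% ± 3.07 in early telogen. Cdkn2c (p18Ink4c) held between 13.5% and 17.3% in the group means. The INK4 sum was 25.0 ± 7.66, 19.9 ± 5.35, 15.3 ± 5.73 and 11.6 ± 2.35 CPM per kilobase in anagen KO, anagen WT, early telogen KO and early telogen WT, below the Cip/Kip sum in every group. Of the pocket proteins, Rb1 held 61.1% ± 1.03, 69.9% ± 4.59, 69.5% ± 11.3 and 80.0% ± 1.53 in the same order. The Rbl1 share was 24.8% ± 4.09 in anagen KO and 4.48% ± 0.424 in early telogen WT, its highest and lowest group means. Family totals of the pocket proteins were 12.98 ± 1.42, 13.7 ± 0.863, 15.4 ± 2.69 and 17.97 ± 1.82 CPM per kilobase.

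**Figure D2:**
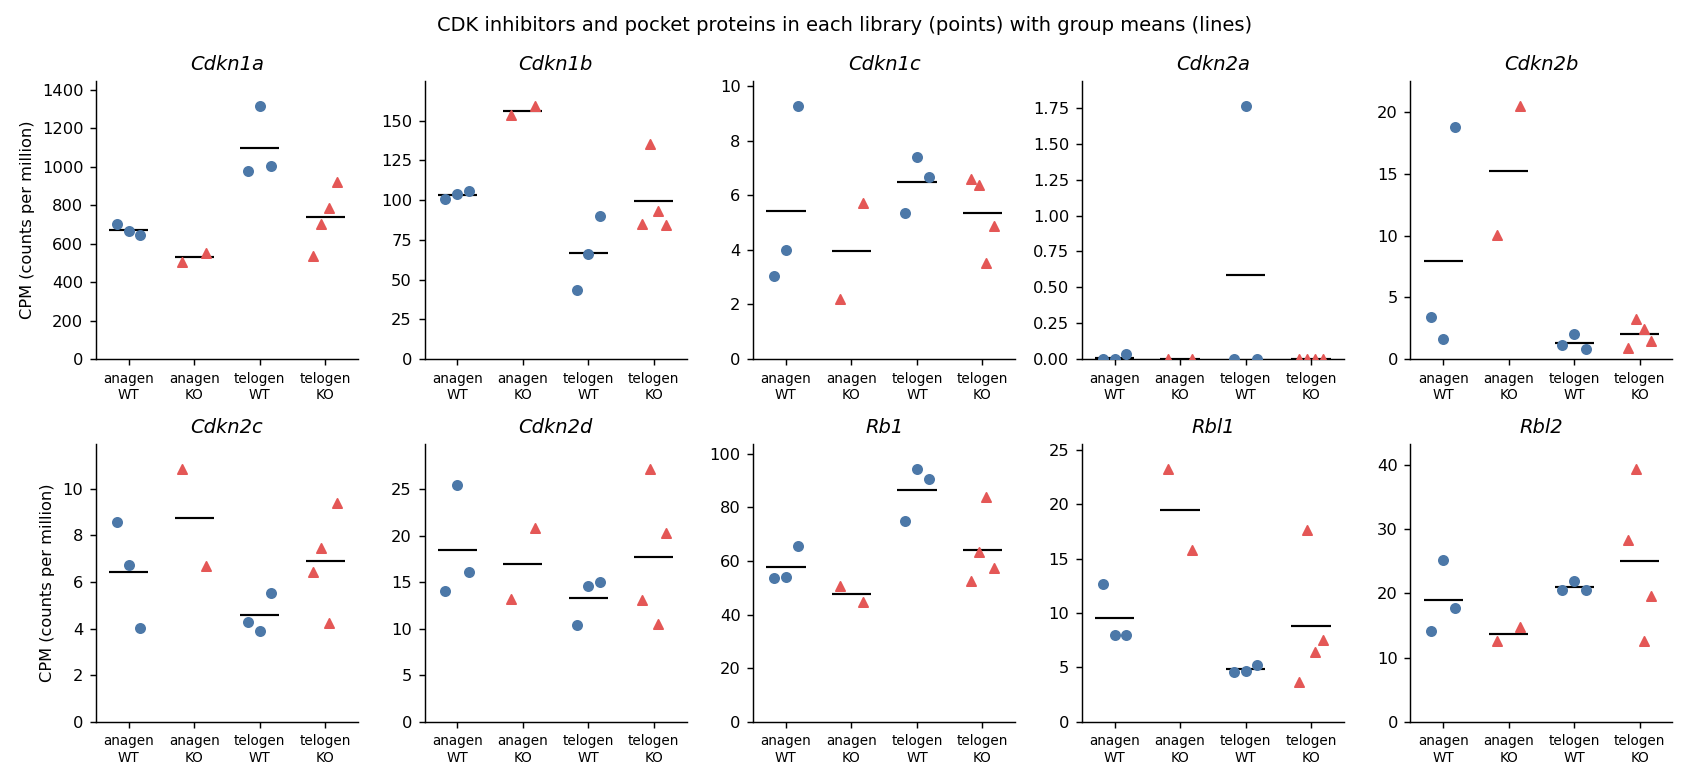
Level in CPM (y axis, from 0, a scale per gene) of the 10 genes in each of the 12 libraries, as circles for WT and triangles for KO, with the group mean as a line. Cdkn1a and Rb1 are highest in early telogen WT, Cdkn1b and Rbl1 in anagen KO, and Cdkn2b is high in 3 of the 5 anagen libraries.

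The stage comparison in WT cells asked how these genes differ between growing and resting follicles when Foxc1 is present. In WT, Cdkn1a and Rb1 rose from anagen to early telogen and Rbl1 fell, and the other 6 genes tested did not pass. These 3 of 9 stand against 29.5% of the 12718 genes tested that passed in this comparison (13.6% higher and 15.9% lower), so the share is near the background. To pass, a gene needed an adjusted p under 0.05 in edgeR's quasi-likelihood test with Benjamini-Hochberg adjustment over all genes tested. Marker sums of other cell types also moved between the stages in WT without overlap. Those of hair matrix and shaft (6 of 6 in the table) were 116 to 183 CPM in anagen and 54.97 to 71.1 CPM in early telogen, where Krt35 was at 0, those of the infundibulum 112 to 254 and 54.7 to 76.5 CPM, and those of melanocytes 17.8 to 106 and 2.28 to 5.10 CPM. Within the infundibulum list Lrig1 fell (log2 fold change -1.60, adjusted p = 0.00522 in edgeR), while Ly6a had an estimate of 0.017. The part of these markers in the stage results was not tested.

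Cdkn1a (ENSMUSG00000023067.14, chromosome 17, bases 29090976 to 29100727, plus strand, mm10) was at 700, 665 and 646 CPM in anagen WT replicates 1 to 3 and at 977, 1314 and 1004 CPM in early telogen WT replicates 1, 3 and 4. Every early telogen library was above every anagen library. The log2 fold change was 0.81 ± 0.20 (SE; 95% interval 0.36 to 1.26), with an adjusted p of 0.0149 in edgeR. The call was lost without early telogen WT replicate 3 (log2 fold change 0.60, adjusted p = 0.0672 in edgeR), the library with the highest Cdkn1a level. It was also lost with the doubted libraries left out (0.57, adjusted p = 0.0805), and it held under 11 of 13 alternatives.

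Rb1 (ENSMUSG00000022105.6, chromosome 14, bases 73183673 to 73325822, minus strand), which restrains entry into S phase, was at 53.5, 54.0 and 65.7 CPM in anagen WT and 74.9, 94.4 and 90.5 CPM in early telogen WT. The groups did not overlap. Its log2 fold change was 0.68 ± 0.17 (95% interval 0.29 to 1.07), with an adjusted p of 0.0174 in edgeR. The call was lost without early telogen WT replicate 3 (0.55, adjusted p = 0.0775), without replicate 4 (0.64, adjusted p = 0.0696) and with the doubted libraries left out (0.65, adjusted p = 0.0613). Rcbtb2 and Lpar6 lie over Rb1 on the opposite strand, and the strand option used in counting is not given in the sources used here. Their counts reached 414 and 464 in an anagen library and 74 and 75 in an early telogen library, so any exchange of reads with them is uncertain.

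Rbl1 (ENSMUSG00000027641.13, chromosome 2, bases 157145893 to 157204534, minus strand), itself known as an E2F target and the gene with the E2F motif shown above, was at 12.7, 7.96 and 7.99 CPM in anagen WT and 4.55, 4.63 and 5.22 CPM in early telogen WT. The groups did not overlap, and the early telogen libraries lay close together. Its log2 fold change was -0.90 ± 0.31 (95% interval -1.59 to -0.22), with an adjusted p of 0.049976 in edgeR, just inside the threshold. The call was lost under 11 of 13 alternatives, with adjusted p-values from 0.0606 to 0.214, among them leaving out any 1 of the 6 libraries. Without anagen WT replicate 1, its highest library, the log2 fold change was -0.63.

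Of the genes that did not pass in WT, Cdkn2b had the largest estimate, -2.41 ± 0.96 (adjusted p = 0.100 in edgeR). It was at 3.41, 1.67 and 18.8 CPM in anagen WT and 1.16, 2.04 and 0.816 CPM in early telogen WT, so the estimate rests on anagen WT replicate 3, without which it was -0.77 (adjusted p = 0.423). DESeq2, the fit of all 12 libraries and the fit without anagen WT replicate 2 did call it (adjusted p = 0.00870, 0.0455 and 0.0349). Cdkn1b was at 101, 104 and 106 CPM in anagen WT and 43.1, 65.9 and 90.2 CPM in early telogen WT. Its groups did not overlap, but early telogen WT spread widely, and the log2 fold change of -0.54 ± 0.25 did not pass (adjusted p = 0.133). Without the filter on low counts Cdkn1b passed (-0.60, adjusted p = 0.0268). Groups that did not overlap in CPM were found for 4 of the 10 genes, against 48.5% of genes tested. Cdkn1c, Cdkn2c, Cdkn2d and Rbl2 gave estimates between -0.42 and 0.36, with adjusted p-values from 0.348 to 0.573.

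In KO cells, Cdkn2b fell from anagen to early telogen and no other gene of the set passed. This is 1 of 9 tested, against 22.2% of the 12771 genes tested that passed and 12% that passed as lower. In KO too, marker sums separated the stages. Hair matrix and shaft markers summed to 180 to 242 CPM in anagen and 50.7 to 85.9 CPM in early telogen. Infundibulum markers summed to 371 to 426 and 78.5 to 177 CPM. Of these Lrig1 fell (log2 fold change -2.195, adjusted p = 0.000145 in edgeR), and Ly6a had an estimate of 1.83 (adjusted p = 0.161). The sum of differentiated epidermis markers was lower in anagen, 585 to 1038 against 1619 to 5632 CPM. Within that list Ivl went the other way and was higher in anagen (log2 fold change -4.92, adjusted p = 0.0001505 in edgeR). Endothelial markers had a lower sum in anagen too, 8.54 to 11.96 against 14.8 to 26.9 CPM. The part of these markers in the Cdkn2b result was not tested. Cdkn2b (ENSMUSG00000073802.5, chromosome 4, bases 89306299 to 89311039, minus strand), known to be induced by TGF-beta signalling, was at 10.03 and 20.5 CPM in anagen KO replicates 1 and 2 and at 0.930, 3.29, 2.43 and 1.503 CPM in early telogen KO replicates 1, 2, 3 and 5. Both anagen libraries were above all 4 early telogen libraries. Its log2 fold change was -2.89 ± 0.50 (95% interval -3.99 to -1.78), with an adjusted p of 0.00293 in edgeR. It passed under all 13 alternatives, of which those without an anagen KO library rest on 1 library at that stage, with log2 fold changes between -3.33 and -2.05. Early telogen KO libraries held only 4 to 37 reads of Cdkn2b each, against 390 and 595 in anagen KO. With every library thinned to the smallest total, the value was -2.05 (adjusted p = 0.0256).

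Within anagen, Cdkn2b was highest in the libraries titled for day 31 of both genotypes, at 20.5 CPM in the KO library and 18.8 CPM in the WT library, and at 1.67 to 10.03 CPM in the other 3. Summed immune markers (6 of 6 detected) were also highest in those 2 libraries, 170.9 and 108 CPM against 17.9 to 60.4 CPM. The part of the immune markers in the Cdkn2b values was not tested. With 1 library of that title per genotype, day and library cannot be told apart. The WT library of that title has an age label of 43 days, so a shared day is itself uncertain.

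Cdkn1b and Rbl1 came near the threshold in KO. Cdkn1b was at 153 and 159 CPM in anagen KO and 84.9, 135, 93.4 and 84.1 CPM in early telogen KO replicates 1, 2, 3 and 5. All early telogen libraries were below anagen, and the log2 fold change was -0.66 ± 0.22 (adjusted p = 0.0552 in edgeR). Rbl1 was at 23.2 and 15.7 CPM in anagen KO and 3.64, 17.6, 6.37 and 7.51 CPM in early telogen KO, with an estimate of -1.19 ± 0.47 (adjusted p = 0.0935 in edgeR). For both genes early telogen KO replicate 2, the library with high sums of fibroblast and several other markers, was the highest of its group. Without it Cdkn1b stood at -0.75 (adjusted p = 0.0246) and Rbl1 at -1.70 (adjusted p = 0.0104), and both then passed. Both also passed without the filter on low counts, with labelled sex as a covariate and with the doubted libraries left out. Rbl2 had an estimate of 0.84 ± 0.35 (adjusted p = 0.111) and passed without early telogen KO replicate 3 (1.03, adjusted p = 0.0461). Rb1 levels did not overlap between the stages either, with all 4 early telogen KO libraries above anagen KO, but the estimate of 0.45 ± 0.28 did not pass (adjusted p = 0.264). In all, 3 of the 10 genes had groups that did not overlap, against 44.8% of genes tested. The stage estimates had the same sign in WT and KO, which share no library, for 8 of 9 genes, against 81.7% of the 12378 genes tested in both.

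**Figure D3:**
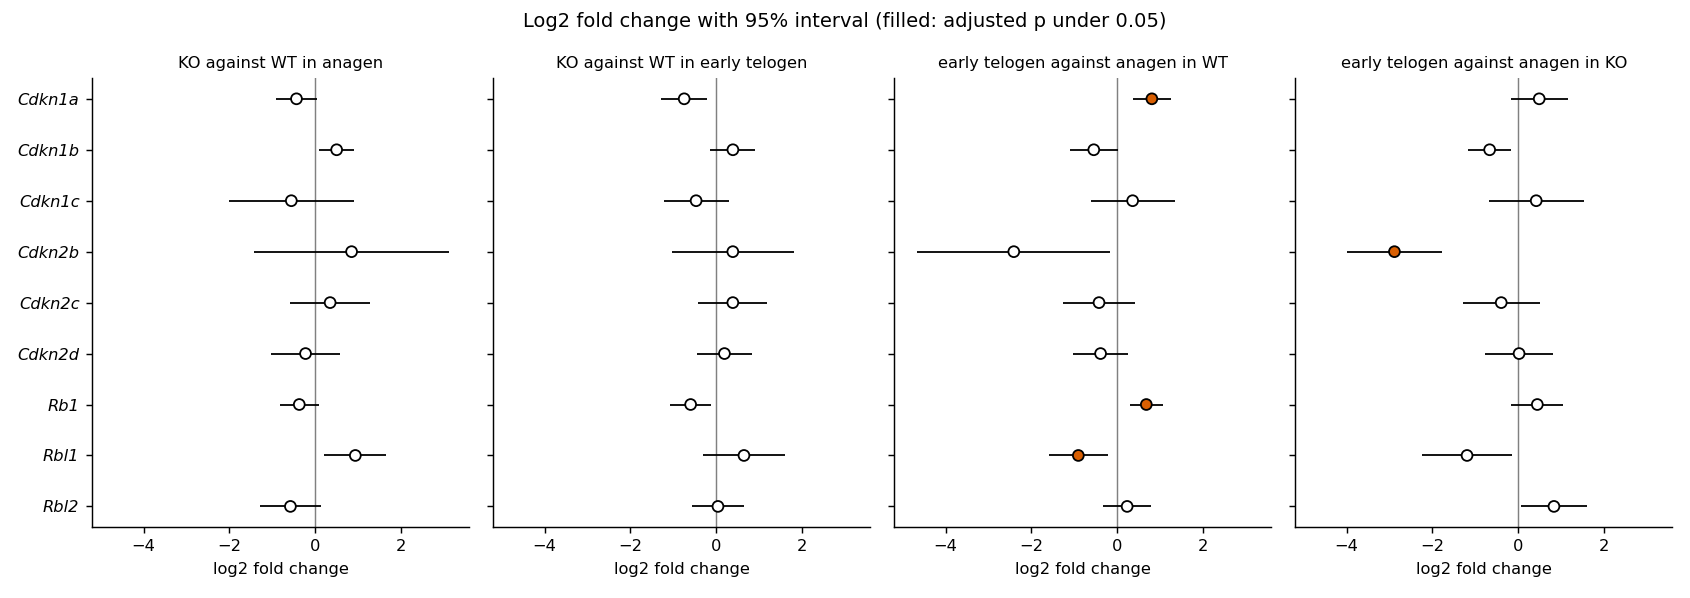
Log2 fold change (x axis) with its 95% interval for the 9 genes tested (y axis) in 4 comparisons, filled where the adjusted p was under 0.05. The filled points are Cdkn1a, Rb1 and Rbl1 in the WT stage comparison and Cdkn2b in the KO stage comparison, and none is filled in either comparison of KO with WT.

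The KO against WT comparison asks what loss of Foxc1 changed within a stage. In anagen none of the 9 genes tested passed, against 0% of the 14409 genes tested. Foxc1 itself did not pass in this test, so the lack of calls does not show that the 9 genes were unchanged. At an unadjusted p under 0.05 edgeR gave 1456 genes, 2 of them of this set, and DESeq2 called 500 genes and none of the set. The 2 genes with the smallest p were Rbl1 and Cdkn1b. Rbl1 was at 23.2 and 15.7 CPM in KO against 7.96 to 12.7 CPM in WT, with a log2 fold change of 0.94 ± 0.31 (95% interval 0.22 to 1.66; adjusted p = 0.359 in edgeR). Cdkn1b was at 153 and 159 CPM in KO against 101 to 106 CPM in WT, with 0.51 ± 0.17 (95% interval 0.10 to 0.91; adjusted p = 0.383). For both genes each KO library was above each WT library. Cdkn1a, at 505 and 553 CPM in KO against 646 to 700 CPM in WT, was below WT in each KO library, with -0.43 ± 0.20 (adjusted p = 0.539). Rb1, at 50.8 and 44.5 CPM against 53.5 to 65.7 CPM, was likewise below WT in each KO library, with -0.37 ± 0.19 (adjusted p = 0.586). These 4 of 10 genes without overlap stand against 29.7% of genes tested. Cdkn2b gave 0.85 ± 0.95 (95% interval -1.42 to 3.12), and 2.49 without anagen WT replicate 3 (adjusted p = 0.179), so the interval allows a difference in either direction.

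In early telogen none of the 9 genes tested passed either, against 0.956% of the 12030 genes tested. At an unadjusted p under 0.05 edgeR gave 1448 genes, 2 of them of this set, Cdkn1a and Rb1, and DESeq2 called none of the set. Cdkn1a was at 538, 703, 787 and 918 CPM in KO replicates 1, 2, 3 and 5 against 977, 1314 and 1004 CPM in WT. All 4 KO libraries lay below all 3 WT libraries, with a log2 fold change of -0.74 ± 0.25 (95% interval -1.28 to -0.20; adjusted p = 0.219 in edgeR). It was the only gene of the 10 without overlap in this comparison, against 13.1% of genes tested. Rb1 was at 52.4, 63.3, 83.8 and 57.5 CPM in KO against 74.9 to 94.4 CPM in WT, with KO replicate 3 inside the WT range. Its estimate was -0.59 ± 0.22 (95% interval -1.06 to -0.12; adjusted p = 0.275). Rbl1, at 3.64 to 17.6 CPM in KO against 4.55 to 5.22 CPM in WT, gave 0.65 ± 0.44 (adjusted p = 0.614), and 0.16 without KO replicate 2. Cdkn1b, at 84.1 to 135 CPM in KO against 43.1 to 90.2 CPM in WT, gave 0.39 ± 0.24 (adjusted p = 0.564). Rbl2 was at 12.6 to 39.4 CPM in KO around 20.4 to 22.0 CPM in WT, with KO libraries on both sides of the WT range. Cdkn2d was at 10.5 to 27.2 CPM in KO against 10.4 to 15.0 CPM in WT. Rbl2, Cdkn2d and Cdkn1b, like Rbl1, were highest in KO replicate 2.

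The KO estimates had the same sign at both stages for 7 of 9 genes, against 60.3% of the 11926 genes tested at both, and these comparisons share no library. Cdkn1a, Cdkn1c and Rb1 were negative at both stages, Cdkn1b, Cdkn2b, Cdkn2c and Rbl1 positive at both, and Cdkn2d and Rbl2 differed in sign. The test of the difference between the stages called none of the 9, against 0.144% of the 13193 genes tested, with adjusted p-values from 0.923 to 1 in edgeR. No gene of the set had an unadjusted p under 0.05 there, and DESeq2 called none of the set. The intervals of that difference were wide, from -1.09 to 0.42 on the log2 scale for Cdkn1a and from -1.60 to 0.99 for Rbl1, so a p above the threshold does not show that the stages responded alike.

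Cdkn2a, whose locus encodes p16Ink4a and, from another first exon and reading frame, Arf, was at or near 0. Its counts were 0 in both anagen KO libraries, 0, 0 and 1 in anagen WT, 0 in all 4 early telogen KO libraries and 0, 19 and 0 in early telogen WT replicates 1, 3 and 4. A floor of 3 counts over the group corresponds to 0.0442 CPM in anagen KO and 0.0842 CPM in early telogen KO, for counting error only. The 19 counts of early telogen WT replicate 3 equal 1.76 CPM. Cdkn2a did not pass the filter on low counts in any comparison. DESeq2 and the unfiltered edgeR fit called it higher in early telogen WT than in anagen WT (adjusted p = 0.0237 and 0.0129), on the counts of that library alone. Gene counts do not separate the Ink4a and Arf transcripts.

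Cdkn1c, an imprinted gene, was lowly expressed, at 2.19 and 5.72 CPM in anagen KO, 3.03, 4.01 and 9.26 CPM in anagen WT, 3.54 to 6.60 CPM in early telogen KO and 5.36 to 7.42 CPM in early telogen WT. Cdkn2c ranged from 3.89 to 10.9 CPM over the 12 libraries. Neighbouring groups in the order of means overlapped throughout for Cdkn1c, Cdkn2b, Cdkn2c, Cdkn2d and Rbl2. For Cdkn1a the order was early telogen WT, early telogen KO, anagen WT and anagen KO, with means of 1098, 736.4, 670.3 and 529 CPM, and of the neighbours early telogen KO and anagen WT overlapped. For Rb1 the same order held, with means of 86.6, 64.2, 57.7 and 47.7 CPM, and anagen KO alone stood apart from its neighbour. For Cdkn1b and Rbl1 the order ran from anagen KO through anagen WT and early telogen KO to early telogen WT, with anagen KO apart from anagen WT for both. The group means of Cdkn1b were 156.1, 103, 99.5 and 66.4 CPM and those of Rbl1 19.5, 9.54, 8.78 and 4.80 CPM.

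The other genes of the pathway were followed through 7 lists. Cyclins and CDKs bound by the inhibitors gave 1 of 12 higher in KO in early telogen, against 0.499% of all genes tested, with a median log2 fold change of 0.47 against 0.03 over all genes tested. That gene was Cdk1, the mitotic kinase, at 6.06 to 9.33 CPM in KO and 0.649 to 1.96 CPM in WT (log2 fold change 2.67 ± 0.48, adjusted p = 0.0236 in edgeR). Its call was lost without early telogen KO replicate 5 (adjusted p = 0.0765) or 1 (0.0534), or WT replicate 1 (0.0762) or 3 (0.105), and with the doubted libraries left out (0.257), while its log2 fold change stayed between 2.29 and 2.69. Of the E2F and DREAM target genes 3 of 17 rose in KO in early telogen, against the same 0.499%, and none fell, with a list median of 0.92. Mki67, a marker of dividing cells, rose, with 46.4 to 49.96 CPM in KO against 5.65 to 8.57 CPM in WT (2.52 ± 0.22, adjusted p = 9.65e-05). Top2a, the DNA topoisomerase of mitotic cells, rose likewise, with 43.4 to 52.5 CPM in KO against 4.26 to 11.4 CPM in WT (2.34 ± 0.28, adjusted p = 0.00146). For both genes no KO library overlapped with WT, and both kept their call under each of the 7 fits that left out 1 library. In the fit of all 12 libraries neither passed (log2 fold changes 2.50 and 2.32, adjusted p = 0.148 and 0.127), and Cdk1 and Mcm5 did not pass there either (0.127 and 0.240). Mcm5, a subunit of the replicative helicase, rose as well (1.25 ± 0.25, adjusted p = 0.0332), but its call was lost under each of those 7 fits, with adjusted p-values from 0.0540 to 0.182 at log2 fold changes from 1.14 to 1.33. Melanocyte sums differed between these groups, as given above, infundibulum sums were 78.5 to 177 CPM in KO and 54.7 to 76.5 CPM in WT, and their part in these values was not tested. None of 9 E2F and DP factors, 7 DREAM and MuvB subunits, 13 p53 pathway genes, 10 ubiquitin ligase parts and 18 regulators of inhibitor transcription passed in that comparison in edgeR. The 2 of smallest p in each were E2f1 (0.91) and Tfdp2 (0.59), Foxm1 (1.37) and Lin9 (1.17), Btg2 (-1.09) and Trp53inp1 (0.87), Dtl (1.90) and Cul1 (-0.70), and Smad3 (1.22) and Myc (-0.82), all as log2 fold changes with adjusted p-values from 0.0502 to 0.400. DESeq2 called 4 cyclins and CDKs and 5 targets higher, against 217 of the 12873 genes it tested. In the fit of all 12 libraries, with 12 of 13193 genes higher, none of either list was higher. With the doubted libraries left out no cyclin or CDK was higher. DESeq2 also passed Foxm1 (adjusted p = 0.0214), Btg2 (0.00879), Dtl (0.00239), Smad3 (0.00897) and Myc (0.0101) with the same sign. Without the filter on low counts these 5 and Trp53inp1 passed too, and Dtl also passed with the size factors of DESeq2 and with labelled sex (0.0495 and 0.0364).

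In anagen no gene of the 7 lists passed between KO and WT in edgeR. Pmaip1, a p53 target that promotes apoptosis, passed in DESeq2 and without the filter on low counts (adjusted p = 0.00356 and 0.000881). The median log2 fold change of 18 E2F and DREAM target genes was 0.90, with 16 of 18 above 0, and that of the cyclins and CDKs 0.45, with 9 of 12 above 0, against a median of 0.02 over all genes tested. Here the KO libraries differed widely among themselves. Mki67 was at 33.0 and 156.4 CPM in KO and 12.5 to 81.3 CPM in WT, so the groups overlapped. By the same rule, the genes of smallest p were Cdk6 (0.66) and Cdk4 (0.44), E2f8 (0.74) and E2f3 (0.50), Mybl2 (0.94) and Foxm1 (0.96), Rrm2 (0.77) and Mcm7 (0.53), Pmaip1 (1.34) and Trp53inp1 (0.70), Cul1 (-0.63) and Skp1a (-0.63), and Myc (-0.60) and Foxo1 (0.42), with adjusted p-values from 0.176 to 0.752.

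Between the stages in WT, 4 of 12 cyclins and CDKs fell and none rose. Over all genes 15.9% fell and 13.6% rose, and several of the list counts given here are near those shares. Cdk4, the kinase that INK4 proteins bind, stood at 137 to 162 CPM in anagen and 40.1 to 57.6 CPM in early telogen (log2 fold change -1.54 ± 0.16, adjusted p = 0.000595 in edgeR). Cdk1 (-3.00 ± 0.79), Ccna2 (-2.42 ± 0.62), the S-phase cyclin, and Cdk2 (-0.61 ± 0.17) also fell. Of 10 E2F and DP factors 3 fell, E2f5 (-1.03 ± 0.21), a partner of p130, Tfdp2 (-0.95 ± 0.22) and E2f3 (-1.02 ± 0.32). In the MuvB list Lin54, the DNA-binding subunit, rose (0.86 ± 0.18) and Mybl2, its partner in dividing cells, fell (-1.98 ± 0.53). Of 17 E2F and DREAM targets 4 fell and 2 rose, the 4 of smallest p being Cdc20 (-2.29), Mcm2 (-1.69), Pcna (0.59) and Mcm4 (-0.74). Of 13 p53 pathway genes Sesn2, a stress-induced regulator of mTORC1, rose (1.89 ± 0.15, adjusted p = 0.000222) and Bax, a promoter of apoptosis, fell (-0.75 ± 0.19). Of the ubiquitin ligase parts, which turn the inhibitors over, Cul1 rose (1.34 ± 0.17) while Dtl, Cks1b and Rbx1 fell (-1.97, -0.97 and -0.53). Among 17 regulators of inhibitor transcription Myc and Klf4 rose (0.81 and 0.96) and Cbx8, a Polycomb subunit, fell (-0.90).

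Of these WT calls, those of Cdk4, E2f5, Tfdp2, Cdc20, Sesn2 and Cul1 held under all 13 alternatives. That of Lin54 held without any 1 library but was lost with the doubted libraries left out (adjusted p = 0.0597 in edgeR). Cdk1, Ccna2, Cdk2 and Mcm2 were lost without anagen WT replicate 1 or early telogen WT replicate 1 or 3, with adjusted p-values from 0.0531 to 0.0979. Without anagen WT replicate 1 the log2 fold change of Cdk1 was -1.88, that of Ccna2 -1.57 and that of Mcm2 -1.10. Mybl2 was lost without anagen WT replicate 1 or early telogen WT replicate 1 or 4 (0.0560 to 0.0949). Single libraries decided Dtl (0.0531 without anagen WT replicate 1), Myc (0.0720 without early telogen WT replicate 3) and Bax (0.0643 without early telogen WT replicate 4). E2f3, Cbx8 and Rbx1 were lost without any 1 of the 6 libraries (0.0504 to 0.146). Klf4 was lost without any but early telogen WT replicate 1 (0.0517 to 0.157), and Mcm4 and Cks1b without any but anagen WT replicate 3 (0.0668 to 0.117). Pcna was lost without anagen WT replicate 3 or any early telogen WT library (0.0506 to 0.128). With labelled sex as a covariate Cdk2, E2f3, Pcna, Mcm4, Rbx1, Cbx8 and Klf4 were lost too (0.0503 to 0.0869). Of the 13 alternatives Cbx8 passed 2, E2f3 and Rbx1 3 each, Klf4 5, and Pcna and Mcm4 6 each.

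In KO, 5 of 12 cyclins and CDKs fell between the stages and 1 rose, against 12% and 10.2% of all genes, the 4 of smallest p being Cdk4 (-1.49 ± 0.25), Ccnb2 (-1.98 ± 0.51), Cdk1 (-1.63 ± 0.42) and Ccnb1 (-1.75 ± 0.47). Of the E2F factors E2f5 (-1.22 ± 0.34) fell, and of the MuvB list Mybl2 (-1.58 ± 0.49). Of 17 targets 3 fell, which is near that background, Birc5 (-2.02), Cdc20 (-1.59) and Mcm5 (-1.20). Sesn2 (1.91) and Cul1 (1.26) rose as they did in WT, and Btg2 (-1.97), an antiproliferative p53 target, Bax (-0.88), Rbx1 (-0.84), Hes1 (-1.35), a Notch target, and Foxo1 (-0.78) fell.

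Cdk4 and Sesn2 held in KO under all 13 alternatives. The calls of the proliferation genes depended on anagen KO replicate 1, which had the higher target mean of its group. Leaving out either anagen KO library leaves 1, so the spread then comes from early telogen KO alone and the lone library is assumed to vary like it. Without replicate 1 the log2 fold changes were -0.47 for Cdk1 (adjusted p = 0.586 in edgeR), -0.69 for Ccnb2 (0.503), -0.64 for Ccnb1 (0.530), -1.18 for Birc5 (0.291), -0.44 for Cdc20 (0.614), -0.37 for Mcm5 (0.569), -0.99 for Mybl2 (0.355) and -0.89 for E2f5 (0.224), and none passed. Foxo1 was also lost without it (0.179), and Bax without either anagen library (0.0767 and 0.163). Without anagen KO replicate 2 the calls of Btg2 (-0.70, adjusted p = 0.237), Hes1 (-0.68, 0.294), Rbx1 (-0.76, 0.141) and Cul1 (1.15, 0.0674) were lost. Leaving out early telogen KO replicate 1 lost Ccnb1, Cdc20, Mcm5, Mybl2, Hes1, Foxo1 and Rbx1 (0.0572 to 0.0822), replicate 2 lost Mybl2 (0.0565), replicate 3 lost Cdk1, Ccnb1, Mcm5 and Bax (0.0518 to 0.0655), and replicate 5 lost Ccnb2, Cdc20, Mcm5, Mybl2, E2f5, Hes1 and Bax (0.0508 to 0.0732). In the fit of all 12 libraries the KO stage calls of Ccnb2, Cdk1, Ccnb1 and Mcm5 were lost (0.0592 to 0.105). No gene of the 7 lists passed for the difference between stages in the KO effect, with adjusted p-values from 0.670 up in edgeR. Without the filter on low counts, however, 2 targets were higher for that difference, Top2a among them (adjusted p = 0.0368), and Btg2 was lower (0.0167).

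Levels of the inhibitors were set against the mean of 17 E2F and DREAM target genes over the 12 libraries, as log2 CPM with the mean of each deposited table subtracted. These correlations are a description, since the points share groups, library depth and normalization. Cdkn1c went down as the target mean went up, with Pearson's r = -0.90 and Spearman's rho = -0.82, and r = -0.79 without the 2 libraries farthest from the median target mean. Within the 7 early telogen libraries r was -0.82. Cdkn2c went the other way, with r = 0.79 and rho = 0.85 (0.60 without those 2 libraries), and so did Rbl1, with r = 0.72 and rho = 0.73 (0.59). Rb1 (r = -0.54), Cdkn1a (-0.49), Rbl2 (-0.45) and Cdkn1b (0.45) were weaker, and Cdkn2b (-0.04) and Cdkn2d (-0.12) were near 0. Among the genes of the set, the pair with the highest r was Cdkn1a and Rb1 (r = 0.84, rho = 0.80), while Cdkn1c and Cdkn2c had the lowest (r = -0.67).

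**Figure D4:**
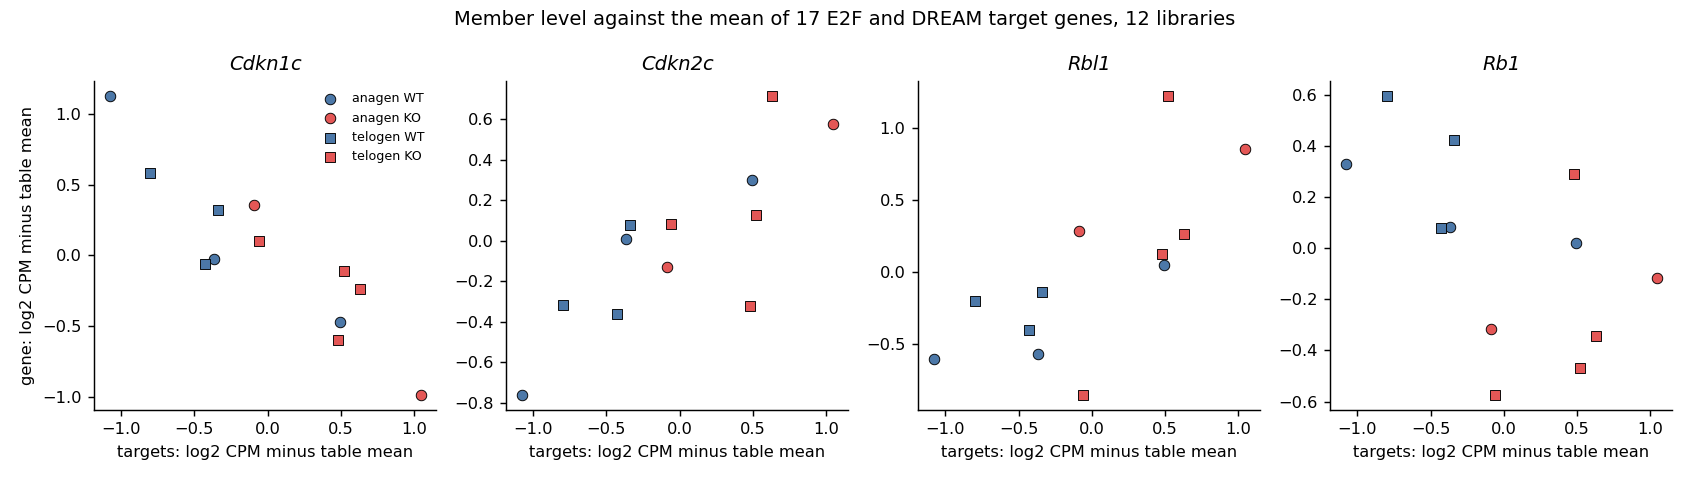
Level of Cdkn1c, Cdkn2c, Rbl1 and Rb1 (y axis) against the mean of 17 E2F and DREAM target genes (x axis), both as log2 CPM minus the mean of the deposited table, with 1 point per library. Cdkn1c falls along the x axis (r = -0.90), Cdkn2c and Rbl1 rise along it (r = 0.79 and 0.72), and Rb1 is scattered (r = -0.54).

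Over the same 12 libraries and 13193 genes, the genes whose pattern was most like each member were picked by Pearson's r. They were Galnt18 (r = 0.97) and Zfp593 (0.95) for Cdkn1a, Ccdc167 (0.96) and Clcc1 (0.92) for Cdkn1b, and Abr (0.95) and Nt5c2 (0.93) for Cdkn1c. For Cdkn2b Foxn3 (0.89) is given, for Cdkn2c Prim1 (0.92), and for Cdkn2d Tprgl (0.94) and Ttc5 (0.93). For Rb1 they were Crim1 (0.96) and Acap2 (0.94), for Rbl1 Trmt6 (0.90) and Ccdc77 (0.89), and for Rbl2 Snx24 (0.92) and Il17re (0.92). Without the 2 libraries farthest from the median of the member, these values ran from 0.782 for Rbl1 with Ccdc77 to 0.963 for Cdkn1c with Nt5c2. Each gene was picked for its high r among 13193 genes over 12 libraries, so a high value follows partly from the choice. That holds without the 2 libraries too, and the values are a description only. Aktip lies over part of Rbl2 on the opposite strand, with up to 1122 counts in an anagen library, so its reads and those of Rbl2 may not be fully separate.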

How the data were processed

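RNA from sorted hair follicle stem cells was prepared with oligo(dT) selection and a directional kit, per the labels' protocols. Reads were aligned with TopHat2 and counted with HTSeq on mm10, per the submitters' processing notes, and versions, annotation and strand option are not given in the sources used here. The authors deposited raw counts per gene in one table per stage, of 38803 (anagen) and 37958 (early telogen) genes. From the first, 5 tally lines, with 20.1 to 32.8% of reads not uniquely aligned and 7.55 to 9.43% in no feature, were left out. From the second, 3 broken lines were left out, and 27 names that had been turned into dates were not matched to genes. Totals were 2662083 to 54482469 counts. Floors cover counting error only, whereas the intervals of the fits also include the spread between libraries.

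Counts were tested with edgeR 4.0.16 in R 4.3.3 (TMM, filterByExpr with minimum count 10 and total 15, robust quasi-likelihood F-test), Benjamini-Hochberg adjusted over all genes tested and called under 0.05. Intervals are 95%. Each comparison used its own groups, the difference between stages all 12 libraries, and stage comparisons only genes named in both tables. CPM divides by the gene total of a library, and CPM per kilobase also by the exon union of GENCODE M21. Correlations used log2 CPM with a prior count of 2. Alternatives were DESeq2 1.42.0, its size factors, no filter, labelled sex, all 12 libraries in 1 fit, thinning, each library left out, a replicate block and, chosen after seeing the data, 4 doubted libraries left out (anagen WT replicate 3, early telogen KO replicates 2 and 5, early telogen WT replicate 3). The fit was tested on simulated data. The genes, lists and tests were chosen with earlier results of these data known. Of each pathway list the passing genes were named (at most 4, by smallest p), otherwise the 2 of smallest p, and for likeness the 2 genes of highest r for members with a group mean of at least 5 CPM, and for Cdkn2b and Cdkn2c 1 of these 2 is not reported here. Figures were drawn with matplotlib 3.10.9.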

Additional observations from a re-analysis of the deposited data

How the results depend on the processing

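Stage, table and depth coincide and groups hold 2 to 4 libraries, so intervals are wide and low genes such as Cdkn2b in early telogen rest on few reads. Over the 9 genes tested and the alternatives of each comparison, direction and call were kept in 99 of the anagen, 115 of the early telogen, 97 of the WT stage, 101 of the KO stage and 142 of the difference values. A gene without a call in either fit counts as kept here. The sign turned in 9, 11, 0, 7 and 20 values in the same order. Among the WT stage values 16 lost their call and 4 gained one, and among the KO stage values 9 gained one. The cause of the changes given here was not tested.

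Between KO and WT in anagen, where no gene passed, the counts of genes higher and lower were 91 and 409 with DESeq2, 57 and 249 without the filter, and 7 and 147 with all 12 libraries in 1 fit, and 1 gene was lower with sex as covariate. Leaving out 1 library gave 0 to 14 higher and 0 to 81 lower, the highest both without anagen WT replicate 1. Log2 fold changes that turned sign were Cdkn1c 0.30 with sex and 0.0684 with doubted libraries left out (-1.40 to 0.0684 without 1 library), Cdkn2c -0.0402 with sex (-0.0539 to 0.66), Cdkn2d 0.20 with sex (-0.59 to 0.0894), Foxm1 -0.0249 with sex (-0.44 to 1.94), E2f8 (-0.21 to 1.30) and E2f3 (-0.29 to 1.002).

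Between KO and WT in early telogen, 60 genes were higher and 55 lower, against 217 and 182 with DESeq2, 167 and 171 without the filter, 12 and 27 with all 12 libraries in 1 fit, 5 and 6 with doubted libraries left out, and 88 lower with sex. Leaving out 1 library gave 9 to 61 higher and 10 to 78 lower. With doubted libraries left out Cdkn2d stood at -0.17, Rbl1 at -0.0115 and Rbl2 at -0.0776, and without 1 library Cdkn2d ran from -0.0122 to 0.36 and Rbl2 from -0.17 to 0.25.

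For stage in WT, members that passed numbered 5 with DESeq2, 5 without the filter, 0 with doubted libraries left out and 0 to 3 without 1 library. Over all genes tested, 4436 of 14614 passed with DESeq2, 4098 of 20809 without the filter and 2489 of 12976 with doubted libraries left out. Both counts of 5 include Cdkn2a, which rests on the 19 counts of early telogen WT replicate 3. Genes higher numbered 1724, 1119 with doubted libraries left out and 1055 to 1630 without 1 library, and genes lower 2024 and 1257 to 1699. Foxc1 stood at 0.17 with sex and -0.48 to 0.53 without 1 library. For stage in KO, 3 members passed without the filter, 3 with sex, 3 with doubted libraries left out and 1 to 3 without 1 library, and 544 to 1771 genes were higher and 838 to 1869 lower. Of all genes tested for stage in KO, 3734 of 20170 passed without the filter, 3620 of 12771 with sex and 3226 of 13087 with doubted libraries left out. Cdkn2d stood at -0.0492 without the filter, -0.20 with sex, -0.51 with doubted libraries left out and -0.29 to 0.35 without 1 library, and Cdkn1c at -0.13 to 1.23.

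For the difference between stages, 17 genes were higher and 2 lower, against 130 and 18 with DESeq2, 316 and 93 without the filter, 6 and 0 with sex, 0 and 0 with doubted libraries left out, and 0 to 51 and 0 to 4 without 1 library. Cdkn1c stood at -0.26 with sex, -0.64 thinned, -0.43 with doubted libraries left out and -0.54 to 0.89 without 1 library. Cdkn2b stood at 1.01 thinned (-2.11 to 0.11), and Cdkn2c at -0.15 thinned and -0.0894 with doubted libraries left out (-0.31 to 0.43). Cdkn1b ran from -0.39 to 0.13 and Rbl1 from -0.81 to 0.0169 without 1 library.

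Deviations of libraries of the same title day in anagen correlated at r = 0.41 and 0.36, and those of other days at -0.41 to 0.0215. The 2 anagen KO libraries deviate from their mean as mirror images. Each WT library therefore has the same r with both, with opposite signs, and this contrast is partly fixed in advance. In early telogen, same-numbered libraries correlated at 0.106 and 0.0532. With 2 pairs each, and a label of 43 days on a library titled for day 31, pairing was not settled, and the fits without the block are reported. With the replicate block 46 genes were higher and 207 lower in anagen, and 4 and 7 in early telogen, and no member passed in either. Under it Cdk1, Mcm5 and Top2a did not pass in early telogen (adjusted p = 0.162, 0.345 and 0.0898). No other call of Foxc1 or of a named gene of the set or the pathway lists was lost. Calls of the other cell type markers, such as Cd34, were not followed under the block. In anagen it called 1 of the cyclins and CDKs and 2 of the E2F and DREAM targets higher. In that block Cdkn2d stood at 0.0589 in anagen, and in early telogen Cdkn2b stood at -0.13, Cdkn2d at -0.18, Rbl1 at -0.0370 and Rbl2 at -0.26.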
